A study of Mus musculus with 12 samples.

Results

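Adult neurogenesis genes were followed in a PIC (photo-isolation chemistry) dataset of the mouse hippocampus. In PIC, the primers for reverse transcription carry a light-sensitive cage, and only cDNA from the irradiated part of a section can be amplified. The 8 genes were Mki67 and Top2a (proliferating cells), Eomes (intermediate progenitors), Sox11 and Sox4 (transcription factors of committed progenitors and young neurons), and Dcx, Igfbpl1 and Draxin (immature neurons). They were chosen by symbol, with earlier results of these data known, and each had 1 row among the 32546 genes of the count table. The brains came from male ICR mice, 8 weeks of age, with no genetic change or drug named, and 3 hippocampal regions, CA1, CA3 and DG (dentate gyrus), were irradiated in 4 histological conditions. Fresh-frozen sections were opened either by 0.1 N HCl (5 min) or by TE at 70 °C (1 h, called TE below), while tissue fixed in 4% PFA was either frozen (fixed frozen) or embedded in paraffin, and its sections were also treated with TE. Each region of a condition was 1 library of 4 replicates with different barcodes, so library and region coincide within a condition, and the study describes these as biological replicates without naming the mouse behind each. P-values measure the spread between these replicates.

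In the adult dentate gyrus, radial glia-like stem cells of the subgranular zone give rise to dividing intermediate progenitors, then to neuroblasts and immature granule neurons that join the granule cell layer. The new cells are a small minority of the cells of the DG, and an irradiated DG region also holds mature granule cells, interneurons and glia. Several genes used as labels of the process are not restricted to it. Proliferation genes label any dividing cell, such as an oligodendrocyte precursor, and some genes of immature neurons are also transcribed in mature neurons. In such bulk samples, fewer cells of a type and less RNA per cell cannot be told apart.

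Promoter sequences in RefSeq (GRCm38.p6) were matched for 7 of the 8 genes, the exception being Igfbpl1. The 250 bases before the transcription start are shown for Sox11 and Mki67, because both were called higher in DG against both other regions, and for Top2a as the other proliferation gene. Capitals mark matches on either strand to the E-box CAGCTG, the general E-box CANNTG (which includes CAGCTG), and the SOX motifs AACAAT and ACAAAG.
Sox11 (chr12:27342719-27342968, minus strand): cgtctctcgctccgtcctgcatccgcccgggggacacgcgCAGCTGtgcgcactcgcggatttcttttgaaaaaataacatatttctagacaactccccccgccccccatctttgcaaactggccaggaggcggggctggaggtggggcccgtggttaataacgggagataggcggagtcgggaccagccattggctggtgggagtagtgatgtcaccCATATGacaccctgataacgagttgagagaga
Mki67 (chr7:135716380-135716629, minus strand): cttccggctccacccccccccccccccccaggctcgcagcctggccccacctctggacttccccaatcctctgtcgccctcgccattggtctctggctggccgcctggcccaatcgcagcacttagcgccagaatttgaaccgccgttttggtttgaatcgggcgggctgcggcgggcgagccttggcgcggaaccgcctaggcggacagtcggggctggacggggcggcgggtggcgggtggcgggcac
Top2a (chr11:99024190-99024439, minus strand): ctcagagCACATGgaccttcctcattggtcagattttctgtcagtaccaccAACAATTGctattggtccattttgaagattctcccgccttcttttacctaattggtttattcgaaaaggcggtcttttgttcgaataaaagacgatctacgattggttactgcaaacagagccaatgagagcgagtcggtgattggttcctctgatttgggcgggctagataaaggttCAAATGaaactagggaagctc
The Sox11 stretch held 2 matches to CANNTG, 1 of them CAGCTG. None of the 4 motifs was found in the Mki67 stretch. The Top2a stretch held 3 matches to CANNTG and 1 to AACAAT, and the last overlapped an E-box. Of all 32851 promoters of this length in the table, 13.0% held CAGCTG, 66.2% CANNTG, 9.42% AACAAT and 16.5% ACAAAG. Among the members not printed, Sox4 held 1 CAGCTG, Draxin 1 CAGCTG and 2 ACAAAG, and Eomes none of the 4 motifs. The 2 starts of Dcx held no E-box, and 1 of them held ACAAAG. A match is a description of the letters and not of a bound site.

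In GENCODE M21 (GRCm38), Mki67 lies at chr7:135689784-135716361, Top2a at chr11:98992943-99024189, Eomes at chr9:118478212-118486132, Sox4 at chr13:28948919-28953713, Sox11 at chr12:27334264-27342574, Dcx at chrX:143855842-143933311, Igfbpl1 at chr4:45809468-45826923 and Draxin at chr4:148098437-148130698. All are on the minus strand except Eomes. No strand option was given for the counting, so reads of overlapping genes on opposite strands may not be told apart. UMIs (unique molecular identifiers, 1 per counted cDNA molecule) of such partners over the 48 replicates were 1 for Gm45240, 7 for Gm33460 and 55 for Mad2l2. The members that they overlap had 207 (Mki67), 18 (Eomes) and 19 (Draxin). These counts do not show how many reads fell in an overlap. The lincRNA Gm26735, which overlaps Sox4, was not analysed here.

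Totals ranged from 35932 to 1111804 UMIs per replicate, with medians of 731106.5 (HCl) and 629964.5 (TE) in fresh-frozen tissue, 122520.5 in fixed frozen tissue and 67528 in paraffin. Over the 48 replicates, Sox11 had 2253 UMIs, Dcx 708, Sox4 508, Mki67 207, Top2a 90, Igfbpl1 75, Draxin 19 and Eomes 18. The fixed tissue held few of these, with 5 UMIs of Mki67 in the 12 fixed frozen replicates and 4 UMIs in the 12 paraffin replicates. Levels are given as CPM (UMIs of a gene over the total of its replicate, times 1000000), and intervals of pooled counts cover counting error only.

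The labelled regions carried their markers. The summed level of 10 granule cell markers was 827 to 2549 CPM in the DG replicates, 234 to 401 CPM in CA1 and 150 to 680 CPM in CA3. The 7 CA1 markers summed to 576 to 1802 CPM in CA1 and 160 to 548 CPM in DG. The 7 CA3 markers summed to 615 to 1163 CPM in CA3, 266 to 479 CPM in DG and 299 to 886 CPM in CA1, where fixed frozen and paraffin replicates overlapped those of CA3. The CA3 list holds Dkk3 and the CA1 list Ociad2, and the study describes both genes as markers of CA1 and of CA3. Glia also differed between the regions. In edgeR's quasi-likelihood fits over all 4 conditions (Benjamini-Hochberg adjusted p under 0.05, as in every call below), 5 of 5 oligodendrocyte markers and 3 of 5 oligodendrocyte precursor markers were lower in DG against CA1 and against CA3, while 4 and 3 of 5 astrocyte markers were higher. Of all genes tested, 10.2% were higher and 8.81% lower against CA1, and 7.97% and 7.91% against CA3.

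Each region comparison covered all genes that reached 10 UMIs in total over its 8 replicates, so the members tested differed between conditions. In fresh-frozen sections 6 members were tested, Eomes and Draxin being too sparse. In fixed frozen sections 4 were tested (Sox4, Sox11, Dcx and Igfbpl1), in paraffin sections 3 (Sox4, Sox11 and Dcx), and in the fits over all conditions all 8. In some comparisons only the DG replicates of a member reached 10 UMIs. These were Igfbpl1 in fixed frozen sections and, with HCl, against CA1, Sox4 in fixed frozen sections against CA3 and in both paraffin comparisons, and Dcx in both fixed frozen comparisons and, in paraffin sections, against CA1.

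Against CA1, 1 member (Mki67) was called higher in DG in fresh-frozen sections with HCl, where 8.17% of all genes tested were called higher and 8.77% lower. In fresh-frozen sections with TE 1 member (Mki67) was called higher, with 5.05% of genes higher and 5.11% lower. In fixed frozen sections 2 members (Sox11 and Igfbpl1) were called higher, with 4.73% of genes higher and 3.36% lower. Igfbpl1 entered that test through DG alone (15 UMIs, beside 0 in CA1), so its call is not separate from the filter, and DESeq2 called Sox11 only. In paraffin sections 0 of 3 members were called by edgeR, with 2.26% of genes higher and 0.881% lower. There 2 members had an unadjusted p under 0.05, and DESeq2 called 0. The fit over all conditions called 3 of 8 members higher, Mki67, Sox11 and Igfbpl1, against 10.2% of genes higher and 8.81% lower.

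Against CA3, 2 members (Mki67 and Sox11) were called higher in DG in fresh-frozen sections with HCl, with 4.53% of genes higher and 4.46% lower. The same 2 were called with TE, with 3.57% of genes higher and 4.35% lower. Sox11 was called in fixed frozen sections, with 4.97% of genes higher and 4.29% lower, and in paraffin sections, with 1.31% of genes higher and 1.95% lower. The fit over all conditions called Mki67 and Sox11, 2 of 8 members, against 7.97% of genes higher and 7.91% lower. In these 10 comparisons edgeR called 0 members lower in DG. The unadjusted p was under 0.05 with a lower level in DG for 1 of them, Top2a against CA1 in HCl, and DESeq2 called 0 lower. By the rule given at the end of the methods, replicates of the same number deviated together in 3 comparisons (DG against CA1 with TE, DG against CA3 with HCl, DG against CA3 with TE). With the replicate number as a block, the genes called in both directions there went from 1423 to 2259, from 1363 to 2619 and from 1140 to 1944, and the members called were the same. The main fits carried no such block. In the other comparisons at least 3 of 4 DG replicates also correlated best with their own number, except DG against CA1 with HCl (0 of 4).

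**Figure D1:**
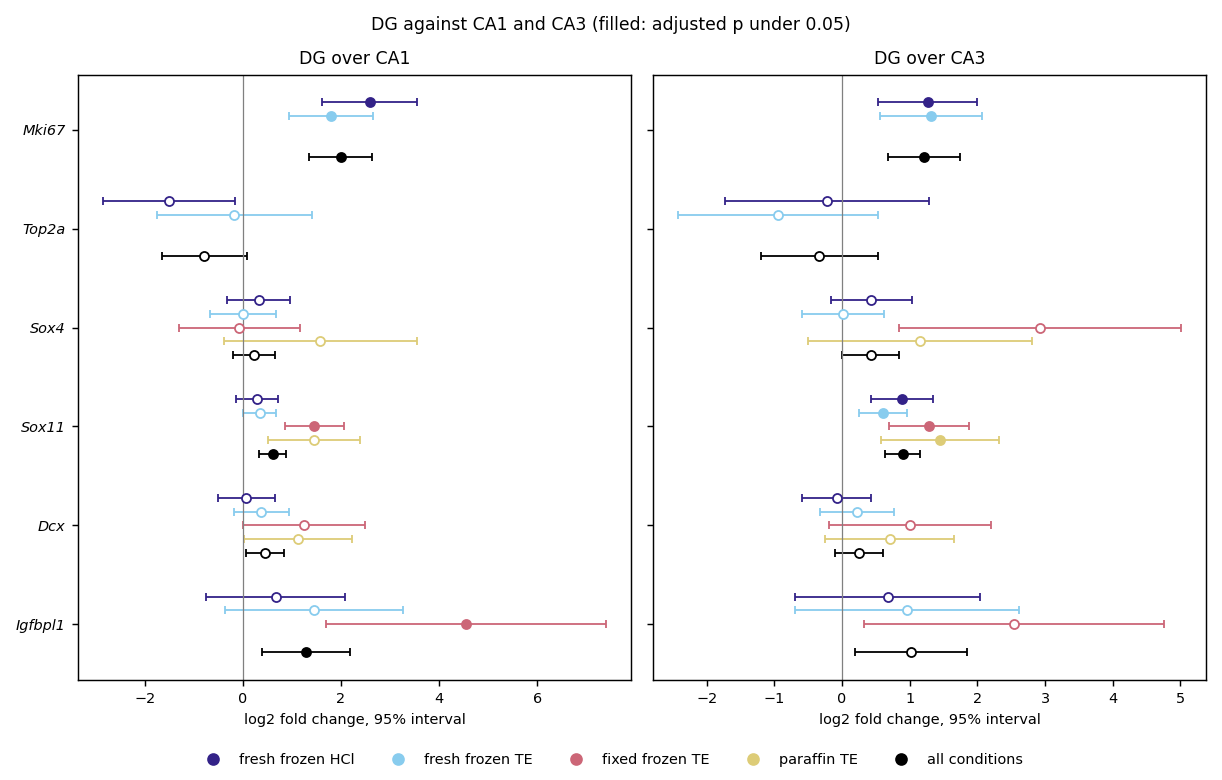
Log2 fold changes of DG over CA1 (left) and over CA3 (right) with 95% intervals from the fits, for the 6 members tested in single conditions, coloured by condition, with the fit over all conditions in black. Filled points had an adjusted p under 0.05, which were all above 0, and Mki67 and Sox11 were filled in the black fits of both panels.

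Mki67, which encodes the Ki-67 protein of dividing cells, was the member with the highest level in DG relative to CA1 in fresh-frozen tissue. With HCl, its level was 19.9, 31.0, 25.4 and 29.3 CPM in the DG replicates, 2.74, 3.28, 6.90 and 0 CPM in CA1, and 15.0, 13.9, 7.41 and 5.47 CPM in CA3. With TE, it was 16.3, 25.6, 23.5 and 37.4 CPM in DG, 2.30, 9.04, 10.8 and 5.40 CPM in CA1, and 11.8, 9.89, 10.7 and 3.91 CPM in CA3. Every DG replicate of both conditions thus lay above every CA1 and CA3 replicate of its condition. CA1 and CA3 were not without Mki67, since CA3 held 37 UMIs with HCl and 31 with TE.

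The log2 fold change of Mki67 in DG over CA1 was 2.59 (SE 0.48, edgeR adjusted p = 0.000112) with HCl and 1.80 (SE 0.43, edgeR adjusted p = 0.00326) with TE. Over CA3 it was 1.26 (SE 0.36, edgeR adjusted p = 0.0228) with HCl and 1.32 (SE 0.37, edgeR adjusted p = 0.0213) with TE. The calls against CA1 held without any single replicate, but not with all replicates thinned to the smallest total, where the log2 fold change was 2.27 (adjusted p = 0.056) with HCl and 1.58 (adjusted p = 0.0555) with TE. Against CA3 with HCl, edgeR's adjusted p was 0.0559 to 0.0988 without CA3 replicate 3 or 4 or DG replicate 2 or 3, DESeq2 gave an adjusted p of 0.0528, and thinned replicates gave 0.96 (adjusted p = 0.364). Against CA3 with TE it was 0.0515 to 0.0745 without CA3 replicate 2 or 4 or DG replicate 2 or 4. Over all conditions the log2 fold change was 1.99 (SE 0.33, edgeR adjusted p = 6.41e-07) over CA1 and 1.21 (SE 0.27, edgeR adjusted p = 0.0003) over CA3. These 2 calls held with any 1 condition left out and with the replicates of each library summed. Mki67 had 101 UMIs with HCl, 97 with TE, 5 in fixed frozen and 4 in paraffin sections. The calls over all conditions thus rest on fresh-frozen tissue and do not show a difference in fixed tissue.

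In fixed tissue Mki67 could not be compared. The fixed frozen DG replicates had 1, 2, 1 and 0 UMIs, those of CA3 had 0, 1, 0 and 0, and CA1 had 0 UMIs of 421409, which allows a level of up to 7.12 CPM. The pooled level of the fixed frozen DG, 5.05 CPM (95% interval 1.37 to 12.9), lay under that limit. In paraffin sections DG had 1 UMI, CA1 2 and CA3 1.

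**Figure D2:**
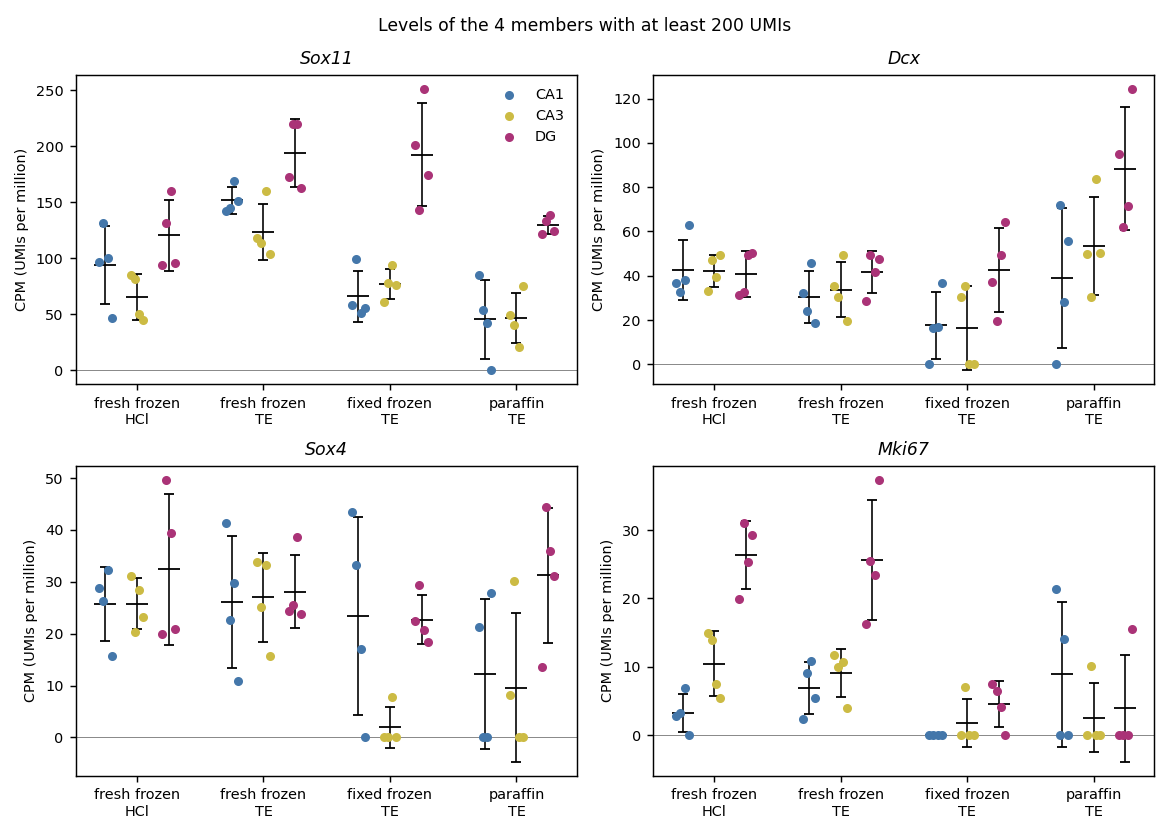
Levels of Sox11, Dcx, Sox4 and Mki67 in each of the 48 replicates, in CPM, by condition and region, with the mean and SD of the 4 replicates in black. For Mki67 the 4 DG points stood above all CA1 and CA3 points in both fresh-frozen conditions, and for Sox11 the DG points stood above those of CA3 in all 4 conditions.

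Top2a, the topoisomerase of dividing cells, gave no higher level in DG. With HCl the DG replicates had 0, 3, 5 and 0 UMIs, CA1 had 11, 3, 7 and 4 UMIs and CA3 had 8, 2, 3 and 2 UMIs. The pooled levels were 3.95 CPM (95% interval 1.71 to 7.79) in DG, 10.7 CPM (6.92 to 15.8) in CA1 and 4.40 CPM (2.46 to 7.26) in CA3. The log2 fold change in DG over CA1 was -1.50 (SE 0.67, unadjusted p = 0.0292, edgeR adjusted p = 0.118). With TE the pooled levels were 3.05 CPM (1.12 to 6.63) in DG, 3.40 CPM (1.56 to 6.46) in CA1 and 5.87 CPM (3.54 to 9.17) in CA3. Replicates of the regions overlapped in both conditions. In fixed frozen sections 2 UMIs were found in DG, and none in CA1 or CA3 (limits of 7.12 and 7.14 CPM). Over all conditions the log2 fold change was -0.79 (95% interval -1.65 to 0.07, edgeR adjusted p = 0.214) over CA1 and -0.34 (95% interval -1.20 to 0.53, edgeR adjusted p = 0.685) over CA3, and the latter turned to 0.16 without fresh-frozen sections with TE.

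Among 21 further genes of the cell cycle, 19 were tested over all conditions against CA1 and 17 against CA3, and 1 was called higher and 0 lower in each, beside 10.2% and 7.97% of all genes called higher. This was Mcm6, a subunit of the replicative helicase, with log2 fold changes of 2.17 (SE 0.28, edgeR adjusted p = 2.21e-10) over CA1 and 1.6 (SE 0.24, edgeR adjusted p = 5.32e-08) over CA3. Its level in DG was 22.1 ± 5.49 CPM with HCl, 22.4 ± 1.70 CPM with TE, 59.2 ± 13.1 CPM in fixed frozen and 21.8 ± 9.94 CPM in paraffin sections (SD, n = 4 each). In CA1 it was 3.63 ± 2.66, 3.55 ± 1.77 and 18.4 ± 13.4 CPM in the first 3 conditions, and 0 UMIs were found in paraffin sections. Genes of mitosis did not pass the test, with log2 fold changes over CA1 of -0.04 (SE 0.76) for Cdk1, -0.07 (SE 0.46) for Ccna2, 0.42 (SE 0.46) for Cenpf and -1.66 (SE 0.67) for Bub1. The median of the list was -0.30 over CA1 and -0.01 over CA3, beside -0.00055 and -0.0042 for all genes tested. Most of these genes were sparse, Mcm6 and Pcna aside, with 10 to 77 UMIs in the DG and CA1 replicates for the others tested. The 5 genes listed for oligodendrocyte precursors summed to 174 to 221 CPM in DG, 262 to 401 CPM in CA1 and 222 to 373 CPM in CA3 with HCl, with Olig1 at 0 UMIs in DG. With TE they summed to 126 to 175 CPM in DG, 169 to 291 CPM in CA1 and 242 to 327 CPM in CA3. In fixed frozen sections they summed to 117 to 142 CPM in DG, 101 to 243 CPM in CA1 and 56.8 to 173 CPM in CA3, and in paraffin sections to 202 to 400 CPM, 254 to 612 CPM and 188 to 332 CPM. The sum does not separate dividing precursors from other cells that express these genes. The part of oligodendrocyte precursors in the proliferation genes was not tested.

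Eomes (Tbr2), the T-box factor of intermediate progenitors, was at the limit of detection in every region. Its UMIs in DG, CA1 and CA3 were 0, 3 and 2 for HCl and 3, 3 and 4 for TE in fresh-frozen tissue, 1, 0 and 1 in fixed frozen tissue, and 1, 0 and 0 in paraffin. The 0 of the DG with HCl, among 2023833 UMIs, allows a level of up to 1.48 CPM. With TE the pooled levels were 1.52 CPM (95% interval 0.314 to 4.45) in DG, 1.13 CPM (0.234 to 3.31) in CA1 and 1.24 CPM (0.337 to 3.17) in CA3. The limits in fixed tissue were wider, at 7.12 CPM in CA1 of fixed frozen sections, 14.3 CPM in CA1 of paraffin sections and 9.75 CPM in CA3 of paraffin sections. Over all conditions the log2 fold change was -0.10 (95% interval -1.21 to 1.00) over CA1 and -0.16 (95% interval -1.37 to 1.05) over CA3. A difference between regions was thus not detectable at this depth.

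**Figure D3:**
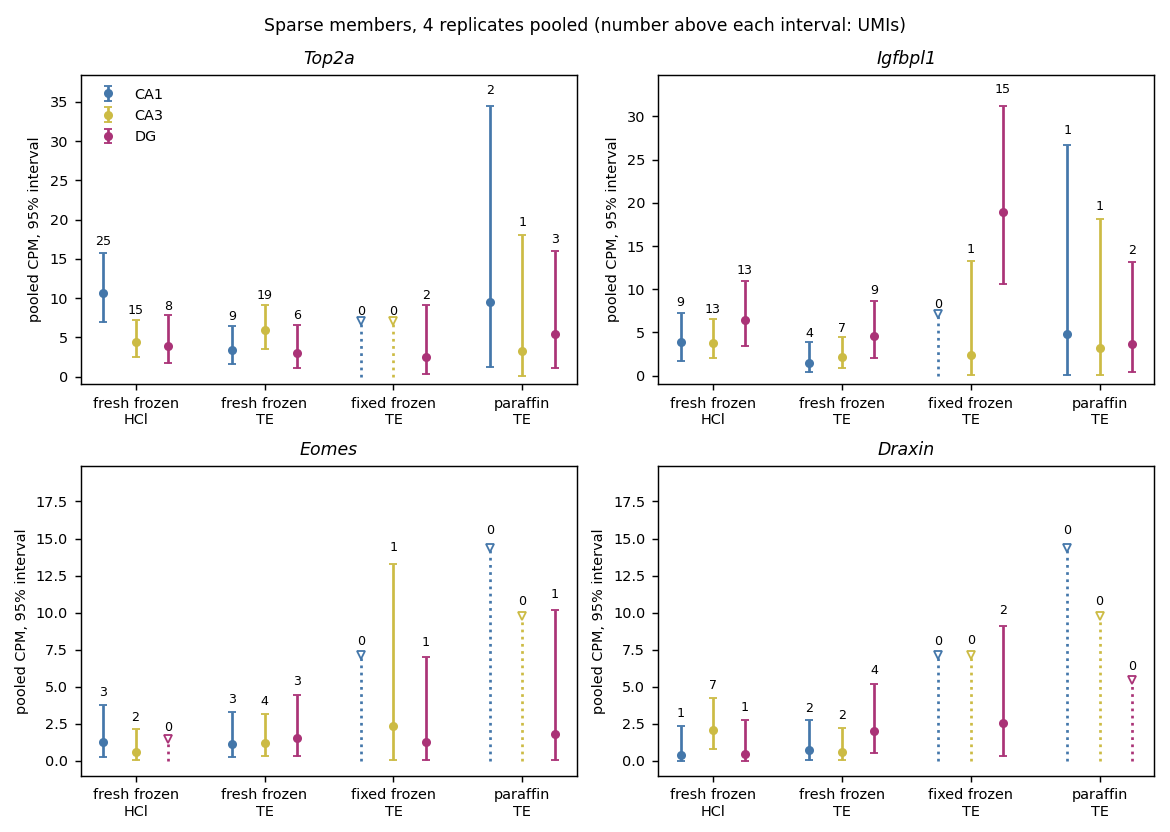
Levels of Top2a, Igfbpl1, Eomes and Draxin with the 4 replicates of a library pooled, in CPM with exact 95% Poisson intervals, by condition and region, with the number of UMIs above each. Open triangles on dotted lines mark the level that 0 UMIs allow (3 counts), and Igfbpl1 in fixed frozen DG, with 15 UMIs, is the only DG interval that lies wholly above such a triangle of its condition.

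Genes of the radial glia-like stem cell, the step before Eomes, were better counted. Of 12 genes tested over all conditions, 3 were called higher and 1 lower in DG against CA1, and the counts against CA3 were also 3 and 1, beside 10.2% of all genes higher and 8.81% lower against CA1, and 7.97% and 7.91% against CA3. The higher genes in both were Fabp7, a lipid-binding protein of radial glia, with log2 fold changes of 1.07 (SE 0.19) over CA1 and 0.76 (SE 0.17) over CA3, Hopx with 0.74 (SE 0.16) and 0.41 (SE 0.15), and Sox2 with 0.43 (SE 0.13) and 0.37 (SE 0.12). Lpar1, a receptor for lysophosphatidic acid that is also made by oligodendrocytes, was lower, with -1.23 (SE 0.14) and -1.10 (SE 0.15). Nes, the intermediate filament nestin, had 38 UMIs in the DG and CA1 replicates and a log2 fold change of -0.86 (SE 0.52). The list's median was 0.23 over CA1 and 0.13 over CA3. Astrocytes of the adult hippocampus also express Sox2, Hopx and Fabp7. The 5 astrocyte markers summed to 2804 to 3764 CPM in DG, 1701 to 2152 CPM in CA1 and 2144 to 2693 CPM in CA3 with HCl. With TE the sums were 3339 to 5050, 2430 to 3200 and 2321 to 2794 CPM. In fixed frozen sections they were 827.4 to 1214, 314 to 827.0 and 246 to 847 CPM, so DG overlapped CA3. In paraffin sections they were 800 to 1242, 324 to 622 and 488 to 732 CPM. The part of astrocytes in the stem cell genes was not tested.

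Sox11, a SOX factor that acts as committed cells become neurons, was the best counted member. With HCl its level was 93.7, 132, 160 and 96.3 CPM in DG, 97.1, 131, 100.1 and 47.2 CPM in CA1, and 84.7, 81.4, 50.6 and 45.1 CPM in CA3. With TE it was 173, 220, 220 and 163 CPM in DG, 142, 145, 169 and 151 CPM in CA1, and 118, 113, 160 and 104 CPM in CA3. In both fresh-frozen conditions DG lay above CA3 in every replicate and overlapped CA1. In fixed frozen sections it was 201, 143, 252 and 174 CPM in DG, 57.9, 99.5, 51.2 and 55.3 CPM in CA1, and 61.1, 77.6, 93.9 and 75.8 CPM in CA3. In paraffin sections it was 122, 133, 139 and 124 CPM in DG, 85.4, 54.0, 42.4 and 0 CPM in CA1, and 49.6, 40.3, 20.9 and 75.2 CPM in CA3. Here the DG replicates lay above those of both other regions.

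Over CA1, the log2 fold change of Sox11 was 0.29 (SE 0.22, edgeR adjusted p = 0.393) with HCl and 0.34 (SE 0.17, edgeR adjusted p = 0.218) with TE. It was 1.45 (SE 0.31, edgeR adjusted p = 9.9e-05) in fixed frozen sections and 1.45 (SE 0.48, edgeR adjusted p = 0.0667) in paraffin sections, where it passed the threshold without CA1 replicate 1 (adjusted p = 0.049). The median over all genes tested was 0.106 and 0.169 in these 2 comparisons. Over CA3, it was 0.89 (SE 0.22, edgeR adjusted p = 0.00945) with HCl, 0.60 (SE 0.17, edgeR adjusted p = 0.0244) with TE, 1.28 (SE 0.30, edgeR adjusted p = 0.000643) in fixed frozen and 1.44 (SE 0.44, edgeR adjusted p = 0.0465) in paraffin sections. The 2 calls in fixed frozen sections held under every alternative run. With thinned replicates, the log2 fold change over CA3 was 0.82 (adjusted p = 0.0679) with HCl, 0.44 (adjusted p = 0.217) with TE and 1.65 (adjusted p = 0.177) in paraffin sections. Against CA3, edgeR's adjusted p was 0.0903 with HCl without DG replicate 3, and 0.0565 to 0.0948 with TE without CA3 replicate 2 or 4 or DG replicate 2 or 3. The paraffin call against CA3 was lost without any 1 of 7 of the 8 replicates (adjusted p of 0.0529 to 0.143), the exception being CA3 replicate 4, and with DESeq2 (adjusted p = 0.131). Over all conditions the log2 fold change was 0.61 (SE 0.14, edgeR adjusted p = 0.000375) over CA1 and 0.90 (SE 0.13, edgeR adjusted p = 2.69e-08) over CA3, called also with any 1 condition left out and with the replicates of each library summed. Sox11 was thus also present outside DG, with 686 UMIs in CA1 and 684 in CA3 beside 883 in DG.

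Sox4, the close relative of Sox11, was not called in any region comparison. With HCl its level was 32.4 ± 14.5 CPM in DG, 25.7 ± 7.11 CPM in CA1 and 25.8 ± 4.86 CPM in CA3 (SD, n = 4 each). With TE it was 28.1 ± 7.04, 26.1 ± 12.8 and 27.0 ± 8.54 CPM. The regions overlapped in both conditions, and the log2 fold change with TE was 0.0037 (95% interval -0.66 to 0.67) over CA1 and 0.01 (95% interval -0.59 to 0.61) over CA3. In fixed frozen sections the DG replicates had 22.4, 29.3, 20.6 and 18.3 CPM and those of CA1 43.5, 33.2, 17.1 and 0 CPM, while CA3 had 1 UMI in 1 replicate (7.83 CPM). The log2 fold change over CA3 was 2.92 (SE 1.07, edgeR adjusted p = 0.0597). The adjusted p was 0.0391 without CA3 replicate 3, which held that UMI, so no UMI was left in CA3. Sox4 entered both fits through DG alone (19 UMIs), so neither adjusted p is separate from the filter on low counts. As a ratio of pooled CPM, DG over CA3 was 10.1, with a counting interval of 1.6 to 419. In paraffin sections DG had 17 UMIs, CA1 2 and CA3 4, and the log2 fold changes of 1.58 (SE 1.00) and 1.15 (SE 0.84) did not pass. Over all conditions they were 0.23 (95% interval -0.20 to 0.65) over CA1 and 0.42 (95% interval 0.0024 to 0.84, unadjusted p = 0.0487, edgeR adjusted p = 0.183) over CA3. The latter had an adjusted p of 0.0454 without fresh-frozen sections with TE.

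Dcx encodes doublecortin, the microtubule-binding protein commonly used to label neuroblasts and immature neurons. In fresh-frozen sections its levels overlapped between the regions. With HCl it was 31.2, 32.6, 49.5 and 50.2 CPM in DG, 36.9, 32.8, 38.0 and 62.9 CPM in CA1, and 33.2, 47.1, 39.5 and 49.2 CPM in CA3. With TE it was 28.5, 49.4, 41.9 and 47.5 CPM in DG, 32.2, 24.1, 45.9 and 18.9 CPM in CA1, and 35.4, 30.6, 49.3 and 19.5 CPM in CA3. The log2 fold change over CA1 was 0.07 (95% interval -0.51 to 0.65) with HCl and 0.37 (95% interval -0.19 to 0.94) with TE, and over CA3 it was -0.08 (95% interval -0.59 to 0.43) and 0.22 (95% interval -0.33 to 0.77). The upper bound of each of these 4 intervals lay below 1 on the log2 scale.

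In fixed tissue the means of Dcx were higher in DG, on few UMIs. Fixed frozen DG had 37.3, 19.5, 49.5 and 64.2 CPM, CA1 had 0, 16.6, 17.1 and 36.9 CPM, and CA3 had 30.6, 35.3, 0 and 0 CPM. Paraffin DG had 94.9, 62.2, 71.7 and 124 CPM, CA1 had 0, 72.0, 28.3 and 55.7 CPM, and CA3 had 49.6, 30.2, 83.7 and 50.1 CPM. Replicates overlapped in each of these comparisons. The log2 fold changes over CA1 were 1.24 (SE 0.63, unadjusted p = 0.0503, edgeR adjusted p = 0.274) in fixed frozen and 1.12 (SE 0.56, unadjusted p = 0.0454, edgeR adjusted p = 0.344) in paraffin sections. Over CA3 they were 1.01 (SE 0.61, edgeR adjusted p = 0.358) and 0.70 (SE 0.48, edgeR adjusted p = 0.547). In fixed frozen sections Dcx reached the filter on low counts through DG alone (30 UMIs, beside 7 in CA1 and 8 in CA3). The same held in paraffin sections against CA1 (45 UMIs beside 8), so the p-values of these comparisons are not separate from the filter. Over all conditions Dcx had a log2 fold change of 0.45 (SE 0.19, edgeR adjusted p = 0.0907) over CA1 and 0.26 (SE 0.18, edgeR adjusted p = 0.387) over CA3. Without fresh-frozen sections with HCl the former was 0.68 and passed (adjusted p = 0.0447).

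Igfbpl1, an insulin-like growth factor binding protein-like gene of young neurons, was called against CA1 in fixed frozen sections. Its DG replicates there had 2, 10, 2 and 1 UMIs, or 14.9, 32.6, 8.25 and 9.17 CPM. The CA1 replicates all had 0 UMIs, and CA3 had 1 UMI in 1 replicate. The pooled level in DG, 18.9 CPM, was 2.66 times the 7.12 CPM that 3 counts over the 4 CA1 replicates would give (edgeR adjusted p = 0.0266). This ratio leaves out the counting error of DG, so it is not a lower bound. The counting interval of the pooled level began at 10.6 CPM in DG and reached up to 8.75 CPM in CA1. The ratio was 1.45 without DG replicate 2 and 1.52 without CA1 replicate 2. The call was lost without any 1 of the CA1 replicates (adjusted p of 0.0552 to 0.147), with the replicate number as a block (adjusted p = 0.0546) and with no filter on low counts (adjusted p = 0.0536), and without DG replicate 2, which held 10 of the 15 UMIs, the gene was below the filter. With HCl Igfbpl1 had 13, 9 and 13 UMIs in DG, CA1 and CA3, with TE 9, 4 and 7, and in paraffin sections 2, 1 and 1. The log2 fold change over all conditions was 1.29 (SE 0.45, edgeR adjusted p = 0.0302) over CA1 and 1.01 (SE 0.42, edgeR adjusted p = 0.0858) over CA3. The former was 0.87 (adjusted p = 0.249) without fixed frozen sections and 1.26 (adjusted p = 0.0906) without fresh-frozen sections with TE, DESeq2 gave 1.3 (adjusted p = 0.084), and summing the replicates of each library gave 1.45 (adjusted p = 0.105).

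Draxin, a secreted guidance protein for axons, was too sparse to compare. Its UMIs in DG, CA1 and CA3 were 1, 1 and 7 with HCl, 4, 2 and 2 with TE, and 2, 0 and 0 in fixed frozen sections. No UMI was found in paraffin sections, which allows up to 5.48 CPM in DG, 14.3 CPM in CA1 and 9.75 CPM in CA3. Over all conditions the log2 fold change was 0.94 (95% interval -0.35 to 2.23) over CA1 and 0.13 (95% interval -1.13 to 1.39) over CA3, and the latter changed sign with DESeq2 (-0.055) and without fresh-frozen sections with TE (-0.56) or fixed frozen sections (-0.13).

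Of 20 further genes of neuroblasts and immature neurons, 18 were tested over all conditions. Against CA1, 11 were called higher, where 10.2% of all genes were, and against CA3, 9 were called higher and 6 lower, where 7.97% and 7.91% of all genes were. The median log2 fold change was 0.54 over CA1 and 0.29 over CA3. Called higher against both were Calb2, with 4.09 (SE 0.25) over CA1 and 1.63 (SE 0.18) over CA3, Nhlh1 with 3.80 (SE 0.52) and 3.48 (SE 0.49), Tac2 with 2.73 (SE 0.31) and 3.85 (SE 0.32), and Neurod1 with 2.27 (SE 0.16) and 1.08 (SE 0.14). Neurod1 and Nhlh1 encode bHLH factors, Calb2 calretinin and Tac2 a tachykinin precursor. The others were Bhlhe22, Tubb2b, Ncam1 and Marcksl1. Not all of these genes are particular to young cells. Neurod1 and Bhlhe22 are also transcribed in mature granule cells, and Calb2 in mossy cells and interneurons.

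The smallest of these genes showed the same problem of counting as the members. Nhlh1 had 24, 17, 7 and 1 UMIs in DG in the 4 conditions in the order given. It had 1, 1, 0 and 0 UMIs in CA1 and 2, 1, 0 and 1 in CA3. Only its DG replicates reached the filter on low counts, so its calls against CA1 and CA3 are not separate from the filter. Against CA3 the 6 genes called lower were Stmn2 with -1.18 (SE 0.10), Ccnd2 with -1.01 (SE 0.11), Elavl2 with -1.0 (SE 0.12), Tubb3 with -0.64 (SE 0.13), Dpysl3 with -0.57 (SE 0.20) and Gap43 with -0.37 (SE 0.13). These encode cytoskeletal, growth-cone, RNA-binding and cyclin proteins of growing neurons, most of which adult pyramidal cells also make. Ccnd2 and Elavl2 were higher in DG against CA1, with 0.74 (SE 0.12) and 0.45 (SE 0.13), so the direction for these genes depended on the pyramidal field. Cajal-Retzius markers were called higher for 3 of 4 tested genes against CA1 and 2 of 4 against CA3, choroid plexus and ependyma markers for 1 of 4 and 1 of 5, erythrocyte markers for 2 of 3 and 1 of 3, and interneuron markers for 0 of 9 and 1 of 9 (with 3 and 2 lower), and their part in these values was not tested. Of all genes, 10.2% were called higher and 8.81% lower against CA1, and 7.97% and 7.91% against CA3, so single genes called in such short lists say little.

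**Figure D4:**
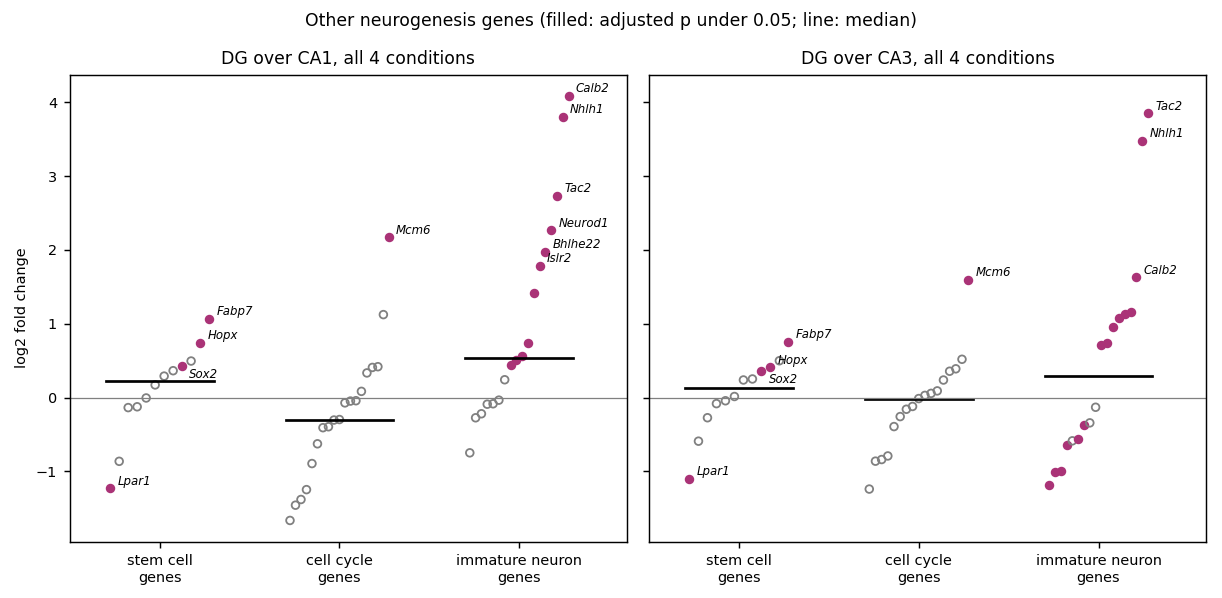
Log2 fold changes of DG over CA1 (left) and CA3 (right) over all 4 conditions for the further stem cell, cell cycle and immature neuron genes, each point being a gene and the black line the median. Filled points had an adjusted p under 0.05, and Mcm6 is the only filled cell cycle gene in both panels, while immature neuron genes are filled on both sides of 0 against CA3.

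Levels of the members in DG were compared between conditions, where each side was 1 library and condition and library cannot be told apart. In fresh-frozen sections with HCl against TE, Sox11 was lower in DG, with a log2 fold change of -0.78 (SE 0.18, edgeR adjusted p = 0.00315), 1 of 6 members tested, beside 7.01% of all genes higher and 8.35% lower. Mki67 had -0.03 (95% interval -0.69 to 0.64). In fixed frozen against fresh-frozen sections with TE, Mki67 was lower, with -2.21 (SE 0.65, edgeR adjusted p = 0.00392), and Igfbpl1 was higher, with 1.94 (SE 0.67, edgeR adjusted p = 0.0142), of 5 members tested, beside 14.8% of all genes higher and 22.8% lower. Sox11 had -0.02 (95% interval -0.41 to 0.36) there and Dcx -0.10 (95% interval -0.80 to 0.60). Mki67 had 4 UMIs in fixed frozen DG and 48 in DG with TE, and Igfbpl1 had 15 and 9, with 10 of the 15 in replicate 2. Each of these 2 members reached the filter on low counts through its higher side alone, so their calls are not separate from the filter. In paraffin against fixed frozen sections, Dcx was higher, with 0.99 (SE 0.38, edgeR adjusted p = 0.0458), and Sox11 lower, with -0.66 (SE 0.25, edgeR adjusted p = 0.0461), of 4 members tested, beside 9.16% of all genes higher and 11.2% lower. With DESeq2 the adjusted p of Igfbpl1 was 0.08, that of Dcx 0.171 and that of Sox11 in paraffin sections 0.144.

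Whether the difference of DG from CA1 or CA3 changed with the condition was tested with interaction terms against fresh-frozen sections with TE. Of 37 tests of members in 6 interactions, edgeR called 0, DESeq2 called 0, and 6 had an unadjusted p under 0.05. Against CA1, 1.46% of all genes were called with HCl, 0.35% in fixed frozen and 0.811% in paraffin sections, and against CA3 0.102%, 0.375% and 0.405%. The difference of Sox11 over CA1 was greater by 1.16 on the log2 scale in fixed frozen sections (95% interval 0.44 to 1.87, unadjusted p = 0.0016, edgeR adjusted p = 0.196) and by 1.22 in paraffin sections (95% interval 0.21 to 2.24, edgeR adjusted p = 0.361). That of Sox4 over CA3 was greater by 3.17 in fixed frozen sections (95% interval 0.98 to 5.35, edgeR adjusted p = 0.248), on 1 UMI in CA3. The other tests with an unadjusted p under 0.05 were Sox11 over CA3 in fixed frozen and in paraffin sections and Mki67 over CA1 in paraffin sections, the last on 3 UMIs.

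Ordered by mean level over the 12 libraries, Mki67 was highest in the DG of fresh-frozen sections, with 26.4 ± 4.95 CPM with HCl and 25.7 ± 8.75 CPM with TE (SD, n = 4), and these did not overlap the next library, CA3 with HCl at 10.5 ± 4.72 CPM. Further down the order, replicate 1 of paraffin CA1 reached 21.3 CPM on 1 UMI, which lies within the range of both. Sox11 was highest in DG with TE (194 ± 30.2 CPM) and in fixed frozen DG (193 ± 45.9 CPM), followed by CA1 with TE (152 ± 12 CPM), which overlapped them. The next, paraffin DG (130 ± 7.87 CPM), lay below CA1 with TE in every replicate. For Dcx the order began with paraffin DG (88.3 ± 27.7 CPM) and for Sox4 with DG with HCl (32.4 ± 14.5 CPM), and every neighbour in these 2 orders overlapped the next.

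The genes most like each well counted member were ranked by Pearson's r of log2(pooled CPM + 5) over the 12 libraries, each centred on its condition, among 9598 genes. For Sox11 they were Ntf3 (r = 0.97), Cemip (r = 0.969) and Hook1 (r = 0.967), and for Mki67 Fbxl18 (r = 0.945), Tasor2 (r = 0.938) and Parvg (r = 0.925). For Dcx they were Ocln (r = 0.965), Yod1 (r = 0.962) and Pdcl (r = 0.961), and for Sox4 Rundc1, Ampd3 (r = 0.968 each) and Ddx42 (r = 0.963). The libraries share region, depth and condition between genes, so these values describe likeness in 12 points. With a pseudocount of 1 CPM, 0 of the 3 genes of Mki67 stayed among its 3 most alike, beside 2 for Sox11, 2 for Sox4 and 3 for Dcx. In that setting r was 0.837 to 0.884 for the 3 genes of Mki67 and 0.948 to 0.986 for those of the other members.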

How the data were processed

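PIC RNA-seq was analysed in 48 replicates (12 libraries of 4 barcodes). The deposited table holds UMI counts per gene without normalization. The authors extracted UMIs of 6 bases with UMI-tools 1.0.0, used Trim Galore! for adapters, HISAT2 2.1.0 for alignment (GRCm38) and featureCounts 1.6.4 for assignment, counted different UMIs, and used DESeq2 1.20.0. The highest count of a member in a replicate was 149, beside 4096 possible UMIs. The annotation release is not given in the sources used here, and 32515 gene identifiers matched GENCODE M21. The series description names CA2 where titles name CA3, and the titles were followed.

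Regions were compared on the counts with edgeR 4.0.16 (glmQLFit and glmQLFTest, TMM, a minimum of 10 UMIs per gene over the samples of the fit, Benjamini-Hochberg adjustment over all genes, called under 0.05) in R 4.3.3, and over all conditions with condition as a covariate. SE and 95% intervals came from the fitted log2 fold change and its F statistic. Pooled counts have exact Poisson intervals, ratios exact conditional ones, and 0 counts a floor of 3. The procedure was tested on simulated counts. DESeq2 1.42.0, other filters and scalings, blocking, thinning and leaving out replicates were alternatives. Levels came from Python 3.11.15 (pandas 2.3.3, numpy 2.4.6), intervals from scipy 1.17.1 and figures from matplotlib 3.10.9. Genes named in the text are the 8 members, list genes called against both regions or among the 3 largest changes each way, and the 3 genes most alike. Other genes of the lists (Pcna, Cdk1, Ccna2, Cenpf, Nes and the 6 genes lower against CA3) were named after their values were seen. Dkk3 and Ociad2 were named because the study describes them as markers of both fields. The members and lists were chosen with earlier results of these data known.

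Whether replicate numbers pair the samples was checked by the correlation of deviations from the library mean. It exceeded 0.1 for all 4 numbers in DG against CA1 with TE (0.219 to 0.314) and in DG against CA3 with HCl (0.228 to 0.433) and TE (0.213 to 0.312), and not in the other 5 comparisons. The rule does not show that these 5 were unpaired. All 4 DG replicates correlated best with their own number against CA1 in fixed frozen and paraffin sections and against CA3 in fixed frozen sections. Against CA3 in paraffin sections 3 did, and against CA1 with HCl 0 did.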

Additional observations from a re-analysis of the deposited data

Results flagged for a closer look

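Among 42 sets of 4 replicates with at least 10 UMIs of a member, the gap between an extreme replicate and its nearest neighbour exceeded Dixon's critical value in 2, and chance flags about 1 in 20 such sets. Sox4 in DG of fresh-frozen sections with TE was highest in replicate 3, with 38.6 CPM beside 23.8 to 25.6 CPM in the other replicates. Without it, the log2 fold change of Sox4 over CA1 was -0.19 (edgeR adjusted p = 0.837) and over CA3 -0.19 (edgeR adjusted p = 0.846). Sox11 in CA1 of fixed frozen sections was highest in replicate 2, with 99.5 CPM beside 51.2 to 57.9 CPM, and the DG replicates there lay above it.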

How the results depend on the processing

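Under the alternatives, the values of single members kept their direction and their side of the threshold in 704 instances, were weaker in 44, stronger in 4 and turned in direction in 30, and no call turned. The 704 include values not called in the main fits and the checks of the most alike genes of Sox11, Sox4 and Dcx. Alternatives in which a member fell below the filter, or kept its direction without an adjusted p, were not counted. A call lost in that way is thus not among the 44. The number of members called moved in 43 instances and was the same or close in 131. The cause was not tested for any change below unless stated. With all replicates thinned to 1 depth (fewer UMIs), the members called higher numbered 0 (DG over CA1, HCl), 0 (CA1, TE), 1 (CA1, fixed frozen), 0 (CA3, HCl), 1 (CA3, TE) and 0 (CA3, paraffin). With filterByExpr, which tested fewer genes and left out Mki67 with TE, they numbered 0 (CA1, TE), 1 (CA1, fixed frozen) and 1 (CA3, TE). With DESeq2 they numbered 1 (CA1, fixed frozen), 1 (CA3, HCl) and 0 (CA3, paraffin), and for DG levels 0 higher (fixed frozen over TE) and 0 higher and 0 lower (paraffin over fixed frozen). With no filter they numbered 1 (CA1, fixed frozen), 0 (CA3, paraffin), and 0 higher and 0 lower (DG level, paraffin over fixed frozen). With the replicate number as a block, 1 member (Sox11) was called in DG over CA1 in fixed frozen sections, Igfbpl1 being lost (adjusted p = 0.0546). There the correlation of same-numbered replicates was over 0.1 for 3 of 4 numbers, which fell short of the rule for pairing, although every replicate correlated best with its own number, and the number of members called changed in no other region comparison. Leaving out 1 replicate gave 1 to 2 members (CA1, fixed frozen), 0 to 1 (CA1, paraffin), 0 to 2 (CA3, HCl), 0 to 2 (CA3, TE), 1 to 2 (CA3, fixed frozen) and 0 to 1 (CA3, paraffin).

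Values that turned in direction were not called. On the log2 scale these were, over CA1, Dcx with HCl (-0.66 thinned, -0.059 to 0.21 without 1 replicate), Sox4 with TE (-0.0088 with no filter, -0.0044 with the third region in the fit, -0.19 to 0.32 without 1 replicate), Sox4 in fixed frozen sections (0.22 thinned, -0.33 to 0.19 without 1 replicate), Top2a with TE (-0.72 to 0.074 without 1 replicate) and Eomes over all conditions (0.11 with the replicate block). Over CA3 they were Sox4 with TE (-0.0062 with no filter, -0.0017 with the replicate block, -0.19 to 0.13 without 1 replicate), Top2a with HCl (-0.87 to 0.36), Dcx with HCl (-0.24 to 0.029) and Igfbpl1 with TE (-0.15 to 1.29), the last 3 without 1 replicate. Over all conditions against CA3, Top2a was 0.16 without TE, Eomes 0.17 without HCl, and Draxin -0.055 with DESeq2, -0.56 without TE and -0.13 without fixed frozen sections. The interaction of Mki67 over CA1 in fixed frozen sections was -0.34 with DESeq2, and the DG level of Sox11 in fixed frozen sections over TE was 0.022 with DESeq2 and 0.015 with its size factors. In fixed tissue, 0 UMIs of a member in a library allow up to 14.3 CPM.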
